A study of Mus musculus with 18 samples.

Results

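Loss of miR-155 was examined in CD8+ T cells from mouse melanomas, in 6 of the 18 RNA-seq libraries of the study. The group called deficient here holds 3 libraries from mice with a floxed miR-155 gene and Cre recombinase under the CD4 promoter (155 Flox CD4cre in the labels). The group called floxed holds 3 libraries from mice with the same floxed gene and no Cre (155 Flox). All mice were of the B6 strain, carried the floxed allele and received no antibody. Each bore B16f10-OVA, a melanoma line that makes ovalbumin, as a tumor under the skin of the flank that had grown for 12 days. The libraries were chosen by these labels, and each pooled the tumors of 2 to 3 mice before CD8 cells were sorted by flow cytometry. The CD4 promoter is active in the thymus before CD4 and CD8 cells part ways, so the Cre acts in CD8 cells too. No libraries with Cre and an intact miR-155 gene were analysed here, so the effects of Cre and of the lost gene cannot be told apart. The age and sex of the mice are not given in the labels.

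MicroRNAs are short RNAs that guide Argonaute proteins to matching sites in messenger RNAs, mostly in the 3′ untranslated region (UTR), and lower their level or translation. MiR-155 is cut from a non-coding host transcript, Mir155hg, which T cells switch on when their antigen receptor is engaged. In CD8 T cells it is known for supporting expansion, cytokine responses and effector function, and its best known target is Socs1, a brake on cytokine signalling. Pairing rests mainly on the seed, bases 2 to 8 of the microRNA, so the sequences that carry this comparison are the mature microRNA and the stretches of target UTRs that match its seed. The mature sequence (RefSeq, GRCm38.p6, chr16:84714143-84714165, plus strand) has the seed in capitals.
mmu-miR-155-5p: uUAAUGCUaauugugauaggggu
A full match to the seed reads AGCATTA in the messenger (a 7mer-m8 site) and becomes an 8mer, AGCATTAA, where an A follows. The windows below, read from GENCODE M21 transcripts on GRCm38 with the matching bases in capitals, come from reported miR-155 targets. The first 9 belong to 8 genes that were called higher in deficient cells, and the last 2 to genes that were not called.
Socs1 (8mer, chr16:10784196-10784225, minus strand): ccgctgtgccgcAGCATTAAgtgggggcgc
Trp53inp1 (8mer, chr4:11170417-11170446, plus strand): tacactaacacaAGCATTAAcaggtgattt
Cebpb (8mer, chr2:167690354-167690383, plus strand): ttttccgtttcgAGCATTAAagtgaagaca
Bach1 (8mer, chr16:87732176-87732205, plus strand): tatgaacagtttAGCATTAAgggttaattt
Bach1 (7mer-m8, chr16:87732388-87732416, plus strand): aatatattgcatAGCATTAtacatgtatg
Ifngr1 (7mer-m8, chr10:19610174-19610202, plus strand): acttttttatggAGCATTActtacgattt
S1pr1 (7mer-m8, chr3:115710667-115710695, minus strand): ccactccccaaaAGCATTActttaactga
Smad5 (7mer-m8, chr13:56738474-56738502, plus strand): tacaatgttatgAGCATTAttgacattga
Ikbke (7mer-m8, chr1:131255143-131255171, minus strand): ggccaacaaactAGCATTActttgactgt
Inpp5d (8mer, chr1:87719826-87719855, plus strand): atgtttttaaaaAGCATTAAagaaaaccat
Jarid2 (8mer, chr13:44920081-44920110, plus strand): tgattttgttttAGCATTAAactgttcaag

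The libraries held 5718027 to 7630955 counts in the deficient group and 5108137 to 9791305 in the floxed group. Levels are given as CPM, counts scaled to the size of the library, after TMM scaling. Mir155hg (chr16:84703167-84715245, plus strand) was at 0.236, 0.894 and 1.9 CPM in deficient libraries, against 20.5, 19.2 and 9.08 CPM in floxed libraries (log2 fold change -4.04 ± 0.65, edgeR adjusted p = 0.000205, or -4.84 without deficient replicate 3). Every deficient library was below every floxed one. The precursor has a gene model of its own, Mir155, at 0 counts in the 6 libraries, so the microRNA itself was not measured. The defining markers of the sort were present, with Cd8a, the alpha chain of the CD8 co-receptor, at 691, 728 and 624 CPM in deficient libraries, against 1321, 1449 and 1145 CPM in floxed libraries (-0.94 ± 0.62, edgeR adjusted p = 0.339). Cd8b1, the beta chain, was at 420.3, 406 and 338 CPM in deficient libraries, against 573, 743 and 652 CPM in floxed libraries (-0.76 ± 0.47, edgeR adjusted p = 0.299). Neither chain was called, although every deficient library was below every floxed one for both. The spread of each gene was estimated over all 18 libraries, among them CD4 sorts in which Cd8a varied widely, as given below. The missing call of Cd8a therefore does not show that its level was alike in deficient and floxed cells.

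Of 14080 genes tested, 2712 (19.3%) were called at an edgeR adjusted p under 0.05, 1359 higher (9.65%) and 1353 lower (9.61%) in deficient cells. These were bulk samples, in which fewer cells of a type and less RNA per cell cannot be told apart. Counts of list members below are to be read beside these shares. The groups of 3 did not overlap for 34.2% of tested genes. The median log2 fold change of all tested genes was -0.01. Rises reached further than falls, with 855 called rises above 1 on the log2 scale and 496 called falls below -1. Of the called rises, 517 belonged to genes under a mean of 5 CPM in floxed cells. Without deficient replicate 1 the counts were 848 higher and 793 lower, and the 6 libraries fitted alone gave 1025 higher and 850 lower.

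Markers of other cells moved with the genotype. The summed level of 15 melanoma genes was 3363, 3283 and 1472 CPM in deficient libraries, against 176, 174 and 214 CPM in floxed libraries, and 14 of them rose (9 without deficient replicate 1, 6 without floxed replicate 1 and 8 without floxed replicate 2). The sum of 20 macrophage genes was 2148, 3029 and 3915 CPM in deficient libraries, against 1135, 1338 and 2654 CPM in floxed libraries, with 8 called higher (13 without floxed replicate 3), and that of 14 dendritic cell genes was 831, 1284 and 1602 CPM in deficient libraries, against 399.6, 357 and 432 CPM in floxed libraries, with 6 called higher. No gene of these 3 lists was at 0 in every library of a group. The 13 CD8 and pan T cell genes summed to 4911, 4951 and 4515 CPM in deficient libraries, against 6546, 7379.7 and 5882 CPM in floxed libraries, with 4 called lower (2 without any 1 of the deficient libraries). Natural killer cell genes (11 genes) were at 355 ± 6.14 CPM in deficient and 327 ± 43.5 CPM in floxed libraries (SD, n = 3 each). Neutrophil genes (8 genes) summed to 29.8 to 36 CPM in deficient and 44.5 to 86.5 CPM in floxed libraries, and endothelial genes (7 genes) to 69.6 to 94.1 CPM in deficient and 29.9 to 37.5 CPM in floxed libraries. B cell, fibroblast and erythroid sums stayed at or below 27.8 CPM in the deficient and 3.03 CPM in the floxed libraries. A fit that carries the melanoma and macrophage sums as covariates called 112 genes (83 higher and 29 lower, 0.795% of those tested), against 2712 without them. The melanoma sum was higher in every deficient library than in any floxed library, so that fit cannot tell other cells and the deletion apart. A call kept or lost in it is given below as a description only. The part of other cells in the results below was not tested.

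**Figure D1:**
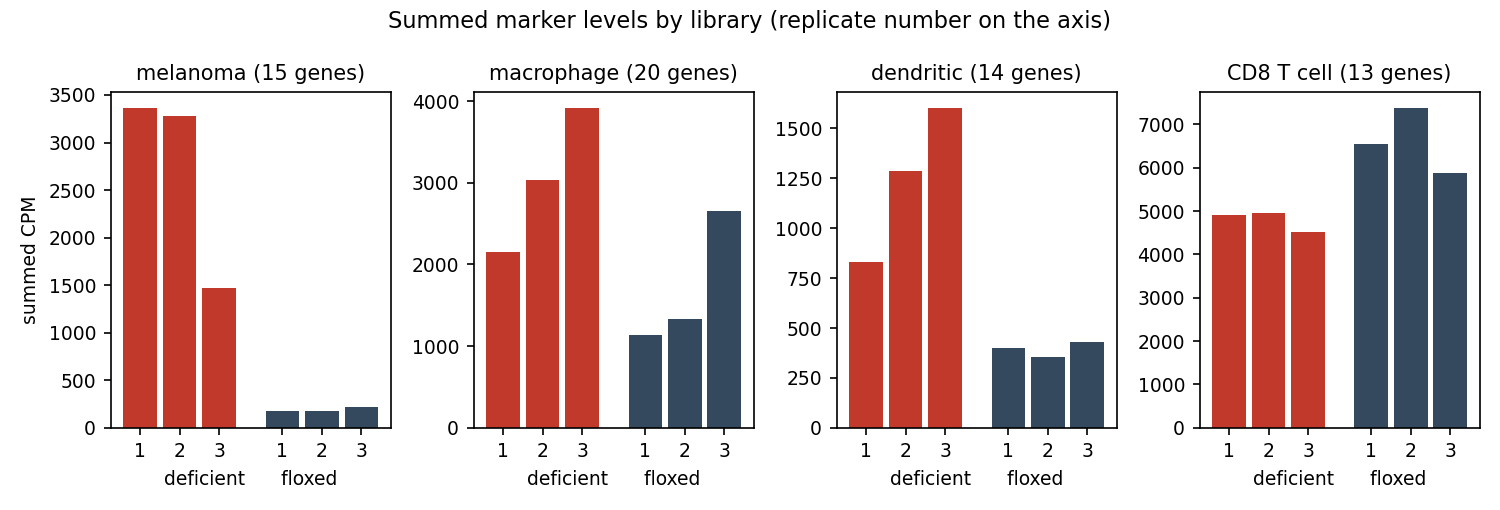
Summed CPM of marker genes (vertical axis, from 0) in each deficient (red) and floxed (dark) CD8 library, with the replicate number on the horizontal axis. Melanoma sums lay between 1472 and 3363 CPM in deficient libraries and between 174 and 214 CPM in floxed libraries, while the T cell sums were lower in every deficient library.

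The floxed libraries varied more among themselves than the deficient ones. Across genes, log2 levels of library pairs correlated at 0.971 to 0.980 within the deficient group and at 0.937 to 0.963 within the floxed group. Floxed replicate 1 stood apart, with 5.82% of its counts on ribosomal-like models, against 1.44% and 2.28% in the other floxed libraries. Its gene models of unsettled status and sense intronic models summed to 4134 CPM, where the other 5 libraries held 1557 to 2005 CPM. For each gene below, a value without 1 library is given where leaving it out ended or made a call, or moved the fold change by over 1.5 times.

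The 10 largest rises and 10 largest falls were picked among called genes at a mean of 10 CPM or more in floxed cells. The pick left out unnamed models and receptor segments, and took only genes whose libraries did not overlap between the groups. Of the 10 rises, 4 were of genes in the melanoma marker list, namely the pigment enzymes Tyrp1 and Dct, the melanosome protein Pmel and Gpnmb. Another was of the growth factor receptor Met. Their log2 fold changes were 4.19 for Tyrp1, 4.10 (an adjusted p of 0.0536 to 0.0671 without deficient replicate 1, floxed replicate 1 or floxed replicate 2) for Dct, 3.90 (an adjusted p of 0.0529 to 0.0689 without deficient replicate 1, deficient replicate 2, floxed replicate 1, floxed replicate 2 or floxed replicate 3) for Pmel, 3.40 for Gpnmb and 3.42 for Met. The first 4 are part of the melanoma sum, so the fit with that sum as a covariate is no check on them. In that fit Met, which is not part of it, was at -0.13 and was not called. Among the other 5 were the homing receptor S1pr1, the lectin receptor Klra7, the tumor necrosis factor receptor family member Tnfrsf26 and Eps8, an adaptor of actin regulation. Tnfrsf26 was at 83.2, 68.1 and 69.5 CPM in deficient libraries, against 12.3, 10.4 and 7.48 CPM in floxed libraries (2.86 ± 0.19, edgeR adjusted p = 8.21e-09). Eps8 was at 103, 116 and 75.5 CPM in deficient libraries, against 14.3, 9.5 and 18.5 CPM in floxed libraries (2.83 ± 0.52, edgeR adjusted p = 0.00223). That these 4 did not overlap between the groups was a condition of the pick and adds no support. Eps8 was the only one of them not called with the marker covariates (edgeR adjusted p = 0.817).

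After Mir155hg, the largest falls included those of Clgn, an endoplasmic reticulum chaperone, Arnt2, a bHLH-PAS transcription factor, the calcium pump Atp2b2, the adhesion receptor Adgrg1, the matrix protein Npnt, Fam20a, the inhibitory receptor Tigit and the granzyme Gzmf. Arnt2 was at 0.589, 0.383 and 1.27 CPM in deficient libraries, against 13.7, 8.72 and 10.1 CPM in floxed libraries (-3.88 ± 0.47, edgeR adjusted p = 1.65e-05). It was the only one of the 10 largest falls that was also called with the marker covariates (edgeR adjusted p = 0.000993). Npnt was at 2.83, 3.96 and 3.17 CPM in deficient libraries, against 58.5, 31.3 and 26.5 CPM in floxed libraries (-3.54 ± 0.52, edgeR adjusted p = 0.000129). Tigit was at 6.84, 5.24 and 4.6 CPM in deficient libraries, against 113, 31 and 24.6 CPM in floxed libraries (-3.32 ± 0.50, edgeR adjusted p = 0.000295, or -2.33 without floxed replicate 1). The fold change of Tigit was thus largest against floxed replicate 1, but the other floxed libraries too were above all deficient ones, as the pick required. The remaining named falls had log2 fold changes of -3.90 (-4.64 without deficient replicate 2) for Clgn, -3.75 for Atp2b2, -3.51 (-4.19 without deficient replicate 2) for Fam20a, -3.56 (-2.97 without floxed replicate 1, and an adjusted p of 0.062 to 0.0848 without deficient replicate 1, deficient replicate 2 or floxed replicate 1) for Adgrg1 and -3.28 (-4.11 without deficient replicate 2, and an adjusted p of 0.0816 to 0.0991 without deficient replicate 1 or deficient replicate 3) for Gzmf. Granzymes E and F are near-identical in sequence, so reads may be shared between them.

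Reported targets of miR-155 were followed as a list of 43 genes, all tested. Of the 43 members, 12 rose and 4 fell, with a median log2 fold change of 0.08. The percentages for all tested genes were 9.65% called higher and 9.61% called lower. A seed site was present in the longest annotated 3′ UTR of 28 of these genes, of which 10 rose and 0 fell, while of the 15 without a site 2 rose and 4 fell (2 falls without deficient replicate 1 or 2, and 4 rises and 1 fall without floxed replicate 1). The median of the 43 was 0.195 without floxed replicate 1. Socs1 was at 46.6, 52.6 and 48.2 CPM in deficient libraries, against 26.7, 24.5 and 22.1 CPM in floxed libraries (1.01 ± 0.15, edgeR adjusted p = 0.000111). Trp53inp1, a stress protein that acts with p53, was at 382, 317 and 294 CPM in deficient libraries, against 114, 126 and 71.2 CPM in floxed libraries (1.67 ± 0.21, edgeR adjusted p = 3.85e-05). Both were higher in every deficient library. In the fit with marker covariates 3 members with a site were called higher, among them Trp53inp1 (edgeR adjusted p = 0.000883). There 0 members with a site were called lower, and 0 members without a site were called. In the CD4 cells of the study 4 of the 43 members rose and 5 fell.

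Further reported targets with a seed site also rose. Ifngr1, the ligand-binding chain of the interferon gamma receptor, was at 1122, 984 and 956 CPM in deficient libraries, against 532, 503 and 414 CPM in floxed libraries (1.08 ± 0.14, edgeR adjusted p = 2.23e-05). The transcription factors Bach1 and Cebpb had log2 fold changes of 1.04 ± 0.16, edgeR adjusted p = 0.000125, and 1.00 ± 0.20, edgeR adjusted p = 0.00157. Smad5, which carries BMP signals, Ikbke, a kinase of antiviral signalling, and Picalm, a clathrin adaptor, had values of 1.00, 0.88 and 0.41 (an adjusted p = 0.0577 without floxed replicate 3). None of these genes overlapped between the groups. Without a site in the annotated UTR, the transcription factor Maf was at 15.7, 25.8 and 21.3 CPM in deficient libraries, against 8.13, 8.23 and 5.16 CPM in floxed libraries (1.51 ± 0.19, edgeR adjusted p = 2.2e-05). A site did not always go with a call. Inpp5d, an inositol phosphatase that restrains receptor signalling, was at 177, 206 and 192 CPM in deficient libraries, against 275, 158 and 176 CPM in floxed libraries (-0.08 ± 0.15, edgeR adjusted p = 0.77), and Jarid2, a chromatin protein with 2 sites of the 8mer kind, at 103, 119 and 123 CPM in deficient libraries, against 139, 96.1 and 103 CPM in floxed libraries (0.03 ± 0.14, edgeR adjusted p = 0.909). For these 2 genes the deficient libraries lay within the range of the floxed ones.

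Across all genes with an annotated 3′ UTR, a seed site went with a small shift. Of 12094 such tested genes, 1139 (9.42%) held a 7mer-m8 or 8mer site in the longest UTR, beside 8.26% of all 20983 annotated genes with a UTR. The median of these 1139 was 0.09 on the log2 scale, and that of the 10392 genes with none of the searched sites was -0.02. The sites searched were AGCATTA, AGCATTAA and GCATTAA (the 7mer-A1 site), on the transcript strand only, and each 8mer holds both of the shorter ones. Genes with a site were called higher in 14.5% and lower in 7.64% of cases, and genes with none in 9.78% and 11.2%. Values were alike for 8mer sites (median 0.09, 406 genes) and for 7mer-m8 sites without an 8mer (0.10, 733 genes), and 0.06 for genes with a 7mer-A1 site alone (563 genes). Genes with 2 or more sites had a median of 0.16 (123 genes). Genes with a site had longer UTRs, at a median of 2723 bases against 1006 bases. Among genes with UTRs over 1825 bases, the medians were 0.08 with and -0.02 without a site, and among those with up to 688 bases, 0.17 and -0.02. These medians moved with single libraries. Without floxed replicate 2 they were 0.06 for all genes with a site, 0.03 for 8mer sites, 0.07 for 2 or more sites and 0.04 for long UTRs with a site. Without deficient replicate 3 they were 0.10 for 2 or more sites, 0.02 for the 7mer-A1 site alone and 0.05 for long UTRs with a site, and without deficient replicate 1 the median for 2 or more sites was 0.11. The 84 genes with short UTRs and a site ran over 0.06 (without floxed replicate 1) to 0.26 (without floxed replicate 3), with 0.092 and 0.075 without deficient replicates 1 and 3, and their median was -0.11 with the marker covariates, where short UTRs without a site were at -0.12. Genes with none of the searched sites stayed between -0.036 and -0.005 without 1 library. The genes of a class share libraries and were not tested as a set.

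**Figure D2:**
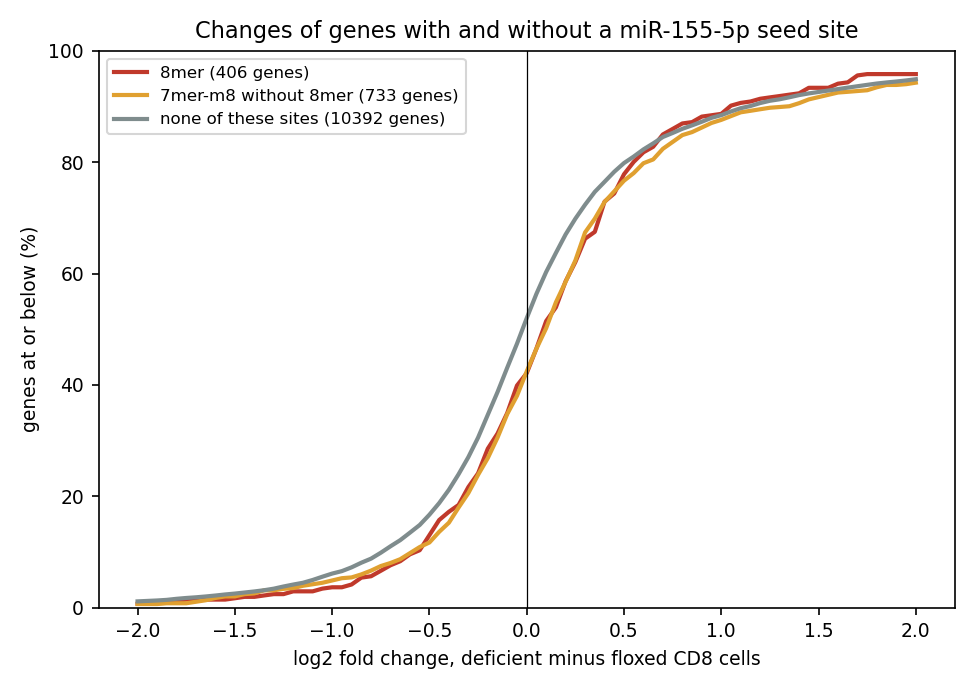
Cumulative share of genes (vertical axis, percent) at or below each log2 fold change, deficient minus floxed (horizontal axis), for genes with an 8mer, with a 7mer-m8 site only, and with none of the sites. The 2 curves of genes with a site lie to the right of the curve of genes with none around 0, with medians of 0.09 and 0.10 against -0.02, and the curves come together away from 0.

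Many interferon response genes were higher in deficient cells, and no member of either interferon list was called lower. In the type I interferon list, of 42 tested members, 21 rose and 0 fell, with a median log2 fold change of 0.68, and 12 rose and 1 fell without deficient replicate 2. Irf7, the transcription factor that amplifies the response, was at 102, 143 and 133 CPM in deficient libraries, against 49.6, 56.3 and 54.8 CPM in floxed libraries (1.23 ± 0.20, edgeR adjusted p = 0.00026). Ifi208 and Ifi213, of the DNA-sensing HIN-200 family, rose by 2.21 and 1.60 on the log2 scale, Ifit3 by 1.90 and the antiviral protein Rsad2 by 2.07. Ifit1bl1 was at 112, 157 and 131 CPM in deficient libraries, against 42.3, 63.2 and 53.8 CPM in floxed libraries (1.32 ± 0.18, edgeR adjusted p = 4.21e-05). Each of these 6 genes was higher in all deficient libraries than in any floxed one. The interferon-induced GTPases, which attack the membranes around intracellular microbes, were listed apart, and of 16 tested members, 11 rose and 0 fell, with a median log2 fold change of 0.97. Tgtp1 was at 39.8, 58.7 and 41.4 CPM in deficient libraries, against 8.55, 8.91 and 8.72 CPM in floxed libraries (2.42 ± 0.25, edgeR adjusted p = 2.53e-06). Gbp2 was at 340.0, 486 and 362 CPM in deficient libraries, against 162, 164 and 136 CPM in floxed libraries (1.36 ± 0.17, edgeR adjusted p = 1.73e-05). Tgtp1 and Tgtp2 are near-identical, so their reads cannot be assigned with certainty. In the class I antigen presentation list, which interferons also induce, 0 of 23 members rose and 1, Pdia3, fell (-0.47), while 4 fell without deficient replicate 2 and 3 without floxed replicate 1. With the marker covariates 2 type I interferon genes and 2 GTPases were called, each higher, and the medians of the lists were 0.51 and 0.80.

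Cytokine signalling changed at its receptors and its brakes. For the receptors, of 32 tested members, 12 rose and 8 fell, with a median log2 fold change of 0.19 (0.34 without floxed replicate 1, 0.11 without floxed replicate 2, and -0.02 without deficient replicate 3 or floxed replicate 3). Il7r, the receptor chain for the survival cytokine IL-7, was at 413, 307 and 295 CPM in deficient libraries, against 146, 92.6 and 64.6 CPM in floxed libraries (1.74 ± 0.32, edgeR adjusted p = 0.00151), and Il4ra at 330.1, 329 and 277 CPM in deficient libraries, against 172, 135 and 105 CPM in floxed libraries (1.18 ± 0.15, edgeR adjusted p = 3.43e-05). Neither overlapped between the groups. Il10ra, the IL-10 receptor chain, was at 155, 202 and 166 CPM in deficient libraries, against 473, 494 and 381 CPM in floxed libraries (-1.37 ± 0.13, edgeR adjusted p = 1.62e-06). The IL-2 receptor chains Il2rb and Il2ra had log2 fold changes of -0.74 and -1.66 (-0.77 without floxed replicate 1, and an adjusted p of 0.0559 to 0.0867 without deficient replicate 1, deficient replicate 2 or floxed replicate 1). Acvr2a, an activin receptor, rose by 2.14. Of the receptors 62.5% were called, beside 19.3% of all tested genes. The fit with marker covariates called 3 receptors higher and 1 lower. In the JAK-STAT list, of 25 tested members, 7 rose and 4 fell, with a median log2 fold change of 0.10. Its median was 0.205 without floxed replicate 1, 0.048 to 0.061 without deficient replicate 1, deficient replicate 2 or floxed replicate 2, and -0.003 without floxed replicate 3. Socs3, a brake on gp130 receptors, was at 469.8, 334 and 292 CPM in deficient libraries, against 102, 73.3 and 68.9 CPM in floxed libraries (2.16 ± 0.22, edgeR adjusted p = 5.44e-06). Cish, a brake that IL-2 and STAT5 induce, was at 6.6, 15.1 and 11.9 CPM in deficient libraries, against 102, 33.4 and 31 CPM in floxed libraries (-2.32 ± 0.44, edgeR adjusted p = 0.00207, or -1.55 without floxed replicate 1). The suppressors of cytokine signalling thus did not move in 1 direction. Jak2 rose (0.60) and Stat3 fell (-0.79), while Stat5a, which carries IL-2 signals, was not called (0.19 ± 0.16, edgeR adjusted p = 0.448).

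**Figure D3:**
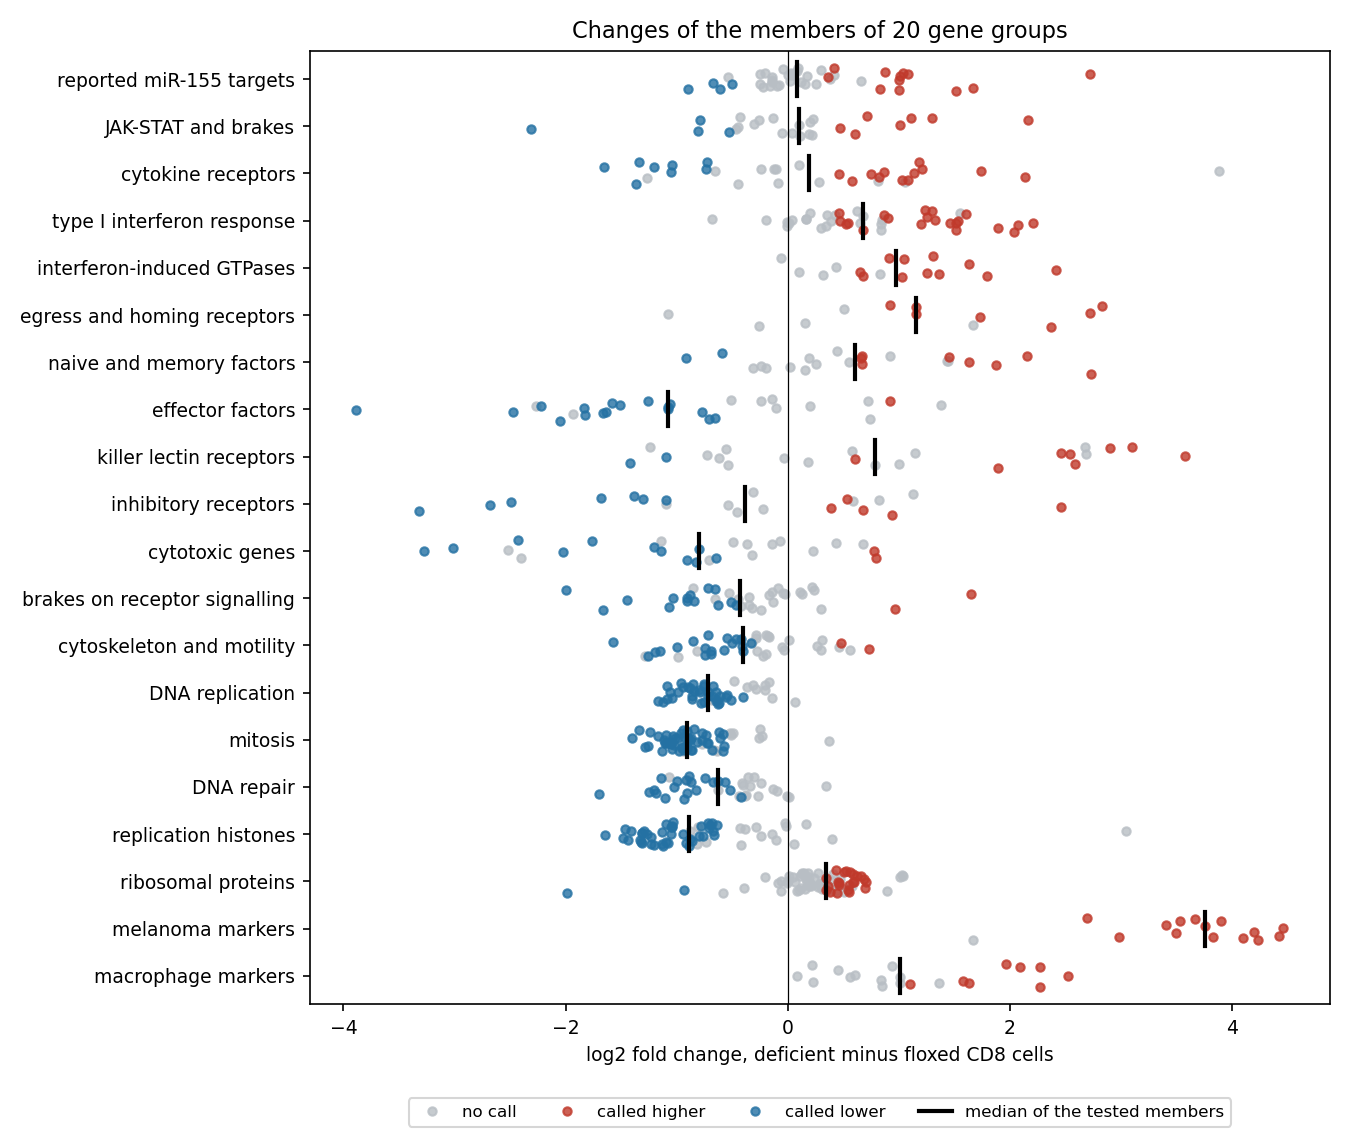
Log2 fold change, deficient minus floxed (horizontal axis), of the tested members of 20 gene groups (rows), with called members in red or blue, others in grey and the median as a black bar. The medians run from -1.08 in the effector factors to 3.76 in the melanoma markers, and the DNA replication, mitosis, DNA repair and histone groups hold no called rise.

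Most listed receptors that guide T cells out of tissue and into lymph nodes were higher in deficient cells. In the list of egress and homing genes, of 12 tested members, 7 rose and 0 fell, with a median log2 fold change of 1.15. S1pr1, the receptor for the egress signal sphingosine 1-phosphate, was at 358, 256 and 259 CPM in deficient libraries, against 58.2, 38.6 and 35.6 CPM in floxed libraries (2.72 ± 0.29, edgeR adjusted p = 1.9e-05). It was several-fold higher in every deficient library than in any floxed one. Ccr7, the chemokine receptor of lymph node homing, was at 302, 191 and 155 CPM in deficient libraries, against 89.1, 53.6 and 52.5 CPM in floxed libraries (1.73 ± 0.31, edgeR adjusted p = 0.00124). Itgb7 and Gpr183 rose by 1.15 and 0.92, and Cxcr4 by 1.15. With the marker covariates 4 of the 12 genes, among them S1pr1, Ccr7 and Cxcr4, were called higher. Receptors for inflammatory chemokines moved in both directions, since of 11 tested members, 2 rose and 5 fell, with a median log2 fold change of -0.34. The counts were 3 rises and 3 falls without deficient replicate 1 and 1 rise and 3 falls without deficient replicate 2, and the median was -0.70 and -0.10 there, -0.02 without floxed replicate 2 and -0.13 without floxed replicate 3. Cxcr6, a receptor of tissue-resident T cells, was at 220.3, 268 and 263 CPM in deficient libraries, against 687, 979.9 and 724 CPM in floxed libraries (-1.67 ± 0.18, edgeR adjusted p = 6.21e-06), and Cxcr3, which responds to interferon-induced chemokines, at 95.5, 122 and 109.6 CPM in deficient libraries, against 51.9, 56 and 53.8 CPM in floxed libraries (1.02 ± 0.24, edgeR adjusted p = 0.00713). Among integrins and adhesion molecules 3 rose and 6 fell of 24, or 7 rose and 6 fell without floxed replicate 3. Of all tested genes 9.65% were called higher and 9.61% lower, so the 3 rises were near that share. Itgav (-1.63), Itga1 (-1.51) and Itgb2 (-0.77) were lower and the tetraspanin Cd151 was higher (1.41).

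Transcription factors of naive and memory T cells rose more often than they fell, and those of effector cells fell more often than they rose. In the naive and memory list, of 22 tested members, 8 rose and 2 fell, with a median log2 fold change of 0.60. Klf2, which drives S1pr1, was at 203, 155 and 146 CPM in deficient libraries, against 71, 40.5 and 51.8 CPM in floxed libraries (1.63 ± 0.24, edgeR adjusted p = 0.000129). Klf3 was at 104, 87.5 and 90.3 CPM in deficient libraries, against 37.5, 16.1 and 9.44 CPM in floxed libraries (2.15 ± 0.33, edgeR adjusted p = 0.000362, or 2.83 without floxed replicate 1), and Id3 at 35, 30.3 and 29.2 CPM in deficient libraries, against 6.7, 7.25 and 11.9 CPM in floxed libraries (1.88 ± 0.37, edgeR adjusted p = 0.00128). These 3 did not overlap between the groups. Floxed replicate 1 decided several other members. Tcf7, which encodes the memory factor TCF-1, was at 268, 214 and 221 CPM in deficient libraries, against 174, 49.9 and 35.1 CPM in floxed libraries (1.44 ± 0.48, edgeR adjusted p = 0.0501, or 2.44 with an edgeR adjusted p = 0.000126 without floxed replicate 1). Lef1, its relative, was at 81.4, 70.4 and 66.5 CPM in deficient libraries, against 52.9, 12.6 and 14.8 CPM in floxed libraries (1.45 ± 0.41, edgeR adjusted p = 0.0218, or 2.40 without floxed replicate 1, and an adjusted p of 0.0625 to 0.0743 without deficient replicate 1, floxed replicate 2 or floxed replicate 3), and Foxo1, which maintains quiescence, at 30.6, 30.1 and 30.1 CPM in deficient libraries, against 87.5, 18.5 and 6.94 CPM in floxed libraries (-0.31 ± 0.57, edgeR adjusted p = 0.766, or 1.20 with an edgeR adjusted p = 0.00405 without floxed replicate 1). Satb1, a chromatin organiser, had 1.43 ± 0.48, edgeR adjusted p = 0.054, or 2.15 with an edgeR adjusted p = 0.00773 without floxed replicate 1. Without floxed replicate 1 the list had 12 rises, 0 falls and a median of 0.91, while it had 4 rises without deficient replicate 1 and 5 without floxed replicate 2.

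In the effector list, of 28 tested members, 1 rose and 17 fell, with a median log2 fold change of -1.08. Prdm1, which encodes Blimp-1, a driver of terminal effector cells, was at 14.6, 20 and 18.2 CPM in deficient libraries, against 119, 56.5 and 44.2 CPM in floxed libraries (-2.05 ± 0.28, edgeR adjusted p = 8.3e-05). Tox, a factor of exhausted cells, was at 24.5, 19.9 and 24.1 CPM in deficient libraries, against 156, 96.3 and 67.8 CPM in floxed libraries (-2.23 ± 0.27, edgeR adjusted p = 2.36e-05), and Id2 at 179, 219 and 234 CPM in deficient libraries, against 468, 558 and 485 CPM in floxed libraries (-1.26 ± 0.16, edgeR adjusted p = 2.19e-05). All deficient libraries were below all floxed ones for these 3 genes. The factors Irf4, Irf8 and Bhlhe40, induced by receptor signals, fell by 1.06, 1.08 and 1.58 on the log2 scale. Runx2, a relative of the cytotoxic factor Runx3, was at 23.5, 23.5 and 18.4 CPM in deficient libraries, against 259.7, 56.1 and 49.1 CPM in floxed libraries (-2.48 ± 0.54, edgeR adjusted p = 0.00596, or -1.29 without floxed replicate 1). Runx3 itself overlapped between the groups (-1.51 ± 0.50, edgeR adjusted p = 0.0473, or -0.34 without floxed replicate 1, and an adjusted p of 0.0654 to 0.472 without deficient replicate 1, deficient replicate 2, deficient replicate 3 or floxed replicate 1). Tbx21, which encodes T-bet, had -0.78 ± 0.21, edgeR adjusted p = 0.0152, or an adjusted p of 0.0538 to 0.0627 without deficient replicate 1, deficient replicate 3 or floxed replicate 1. Eomes, the relative of T-bet, was at 75.3, 60.1 and 74.9 CPM in deficient libraries, against 56, 65.3 and 54.5 CPM in floxed libraries (0.26 ± 0.48, edgeR adjusted p = 0.776). Without floxed replicate 1 the list had 2 rises and 12 falls, and without deficient replicate 1 it had 11 falls. With the marker covariates 1 naive and memory factor, Klf3, was called higher and 1 effector factor, Arnt2, lower, and the medians of the lists were 1.33 and -0.47.

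**Figure D4:**
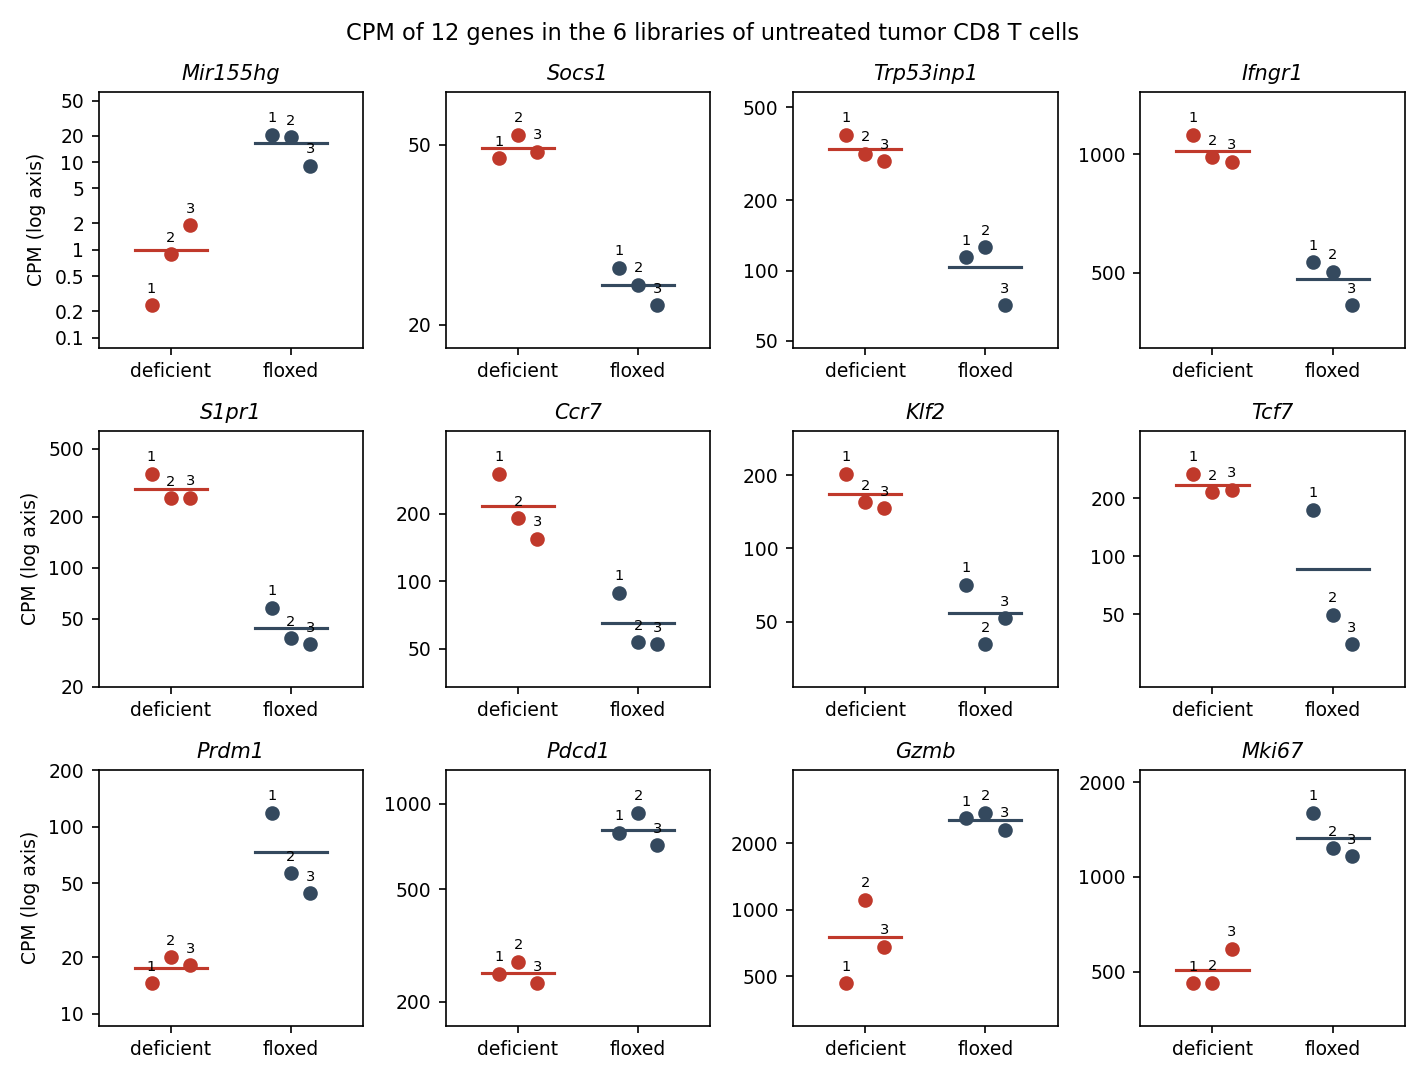
CPM (vertical axis, log scale) of 12 genes in each deficient (red, left) and floxed (dark, right) library, numbered by replicate, with a bar at the group mean. The groups do not overlap in any of the 12 genes. These genes were picked for display and do not stand for all tested genes, of which 34.2% did not overlap. Floxed replicate 1 lies nearest to the deficient libraries for Tcf7, at 174 CPM beside 49.9 and 35.1 CPM in the other floxed libraries.

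Surface receptors moved in both directions. Inhibitory receptors, which damp T cell activation, gave 5 rises and 7 falls among 20 tested members, with a median of -0.38 (-0.20 without floxed replicate 2), and leaving out 1 library other than floxed replicate 1 or 3 left 2 or 3 rises. Pdcd1, which encodes PD-1, was at 251, 277 and 233 CPM in deficient libraries, against 791, 932 and 714 CPM in floxed libraries (-1.68 ± 0.15, edgeR adjusted p = 5.78e-07). Lag3 was at 24.2, 37.4 and 28.7 CPM in deficient libraries, against 263, 135 and 111 CPM in floxed libraries (-2.49 ± 0.30, edgeR adjusted p = 3.95e-05), and Havcr2, which encodes TIM-3, at 56.2, 122 and 73.9 CPM in deficient libraries, against 518, 631 and 468 CPM in floxed libraries (-2.68 ± 0.28, edgeR adjusted p = 1.9e-05). Ctla4 fell by 1.30. No deficient library reached the level of any floxed library for these 4. Of the list, Pdcd1 and Ctla4 were also called lower with the marker covariates. Killer cell lectin-like receptors, many of which restrain killing when they bind class I molecules, mostly rose among those called. Their list, which also holds adaptors and a few other receptors, had 23 tested members, of which 8 rose and 2 fell, with a median log2 fold change of 0.79. The adaptor Hcst (0.60) was 1 of the 8. The fit with marker covariates called 1 member higher and 0 lower. Klra7 was at 95, 90.5 and 93 CPM in deficient libraries, against 18.5, 14.9 and 3.2 CPM in floxed libraries (2.90 ± 0.37, edgeR adjusted p = 4.29e-05), Klra6 at 39.2, 38.7 and 46.5 CPM in deficient libraries, against 8.7, 7.15 and 4.63 CPM in floxed libraries (2.59 ± 0.44, edgeR adjusted p = 0.000396) and Klra1 at 30.6, 25.4 and 30.6 CPM in deficient libraries, against 4.42, 4.51 and 6.05 CPM in floxed libraries (2.54 ± 0.37, edgeR adjusted p = 9.44e-05). Klra genes share long stretches of sequence, so reads may be divided among them. Costimulatory receptors gave 3 rises and 6 falls among 17 (52.9% called, beside 19.3% of all tested genes). The activation receptors Tnfrsf9 (-1.22), Icos (-1.15) and Cd28 (-0.90) were lower, while Slamf6, a marker of stem-like T cells, was at 85.3, 70.4 and 79.3 CPM in deficient libraries, against 37.1, 34.9 and 36.1 CPM in floxed libraries (1.12 ± 0.14, edgeR adjusted p = 1.9e-05), and Cd7 rose by 1.77. Among purinergic genes Entpd1, the ectoenzyme CD39, was at 19.2, 40.5 and 30.9 CPM in deficient libraries, against 149, 163 and 130.0 CPM in floxed libraries (-2.29 ± 0.18, edgeR adjusted p = 1.94e-07). Nt5e, the ectoenzyme CD73 that acts after it, was at 119, 87.1 and 91.4 CPM in deficient libraries, against 33.9, 40.7 and 28.5 CPM in floxed libraries (1.52 ± 0.22, edgeR adjusted p = 0.000105). The 2 enzymes of the pathway to adenosine thus moved in opposite directions.

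More effector products fell than rose. In the cytotoxic granule list, of 25 tested members, 2 rose and 11 fell, with a median log2 fold change of -0.80. Gzmb, a granule protease, was at 466, 1113 and 682 CPM in deficient libraries, against 2598, 2759.9 and 2308 CPM in floxed libraries (-1.76 ± 0.25, edgeR adjusted p = 0.00018). Gzmk was at 7.31, 7.79 and 15.4 CPM in deficient libraries, against 53, 50.2 and 59.6 CPM in floxed libraries (-2.43 ± 0.26, edgeR adjusted p = 3.49e-06), and Nkg7, a granule membrane protein, at 241, 248 and 230.4 CPM in deficient libraries, against 567, 475 and 540.3 CPM in floxed libraries (-1.14 ± 0.11, edgeR adjusted p = 1.68e-06). The pore-forming protein Prf1 fell by 2.03, and Plek by 1.20. Gzma was at 34.3, 48.4 and 42.7 CPM in deficient libraries, against 64.9, 49.2 and 47.7 CPM in floxed libraries (-0.37 ± 0.32, edgeR adjusted p = 0.473), so not every granzyme was called. Of cytokines, chemokines and death ligands, 3 rose and 9 fell among 27 tested (44.4% called, beside 19.3% of all tested genes). The chemokines Ccl4 and Ccl3, which draw other leukocytes, were lower, with Ccl4 at 91.5, 172 and 135 CPM in deficient libraries, against 458, 575 and 473 CPM in floxed libraries (-1.92 ± 0.18, edgeR adjusted p = 1.68e-06) and Ccl3 at 155, 297 and 243 CPM in deficient libraries, against 779, 1094 and 849 CPM in floxed libraries (-1.97 ± 0.24, edgeR adjusted p = 3.75e-05). Ccl5 fell by 0.85, and Fasl, a ligand that triggers cell death, by 0.89. Ifng, which encodes interferon gamma, was at 185, 499.6 and 379 CPM in deficient libraries, against 636, 902 and 721 CPM in floxed libraries (-1.09 ± 0.41, edgeR adjusted p = 0.0852). Its groups did not overlap, but deficient libraries spread widely and it was not called. Il16 rose (0.84 ± 0.12, edgeR adjusted p = 7.16e-05), as did Tnfsf8, the CD30 ligand (2.00 ± 0.36, edgeR adjusted p = 0.0013). With the marker covariates Gzmk, Nkg7 and Ccl4 were called lower and Il16 and Tnfsf8 higher.

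Signalling genes below the antigen receptor fell in part. In that list, of 35 tested members, 3 rose and 10 fell, with a median log2 fold change of -0.22, and 6 fell without deficient replicate 1 or without deficient replicate 3. The median was -0.08 without floxed replicate 1 and -0.39 without floxed replicate 3. The fit with marker covariates called 1 member higher and 0 lower. Cd3e, a chain of the receptor complex, was at 65.1, 61.8 and 64.7 CPM in deficient libraries, against 466, 108 and 88.1 CPM in floxed libraries (-1.79 ± 0.47, edgeR adjusted p = 0.0176, or -0.64 without floxed replicate 1, and an adjusted p of 0.053 to 0.0659 without deficient replicate 1, deficient replicate 2 or deficient replicate 3). The adaptor Sh2d2a was at 218, 237 and 206 CPM in deficient libraries, against 676, 583 and 467 CPM in floxed libraries (-1.38 ± 0.14, edgeR adjusted p = 2.53e-06), while Themis and Lcp2 fell by 0.82 and 0.54. Among negative regulators of the receptor, which activated T cells induce, the list gave 2 rises and 14 falls among 36 tested, with a median log2 fold change of -0.43, or 5 rises, 12 falls and a median of -0.25 without floxed replicate 1. Ubash3b, the phosphatase STS-1, was at 101, 115 and 99.8 CPM in deficient libraries, against 304, 309 and 249 CPM in floxed libraries (-1.45 ± 0.12, edgeR adjusted p = 2.87e-07). The ubiquitin ligase Cblb was at 130.0, 119 and 130.2 CPM in deficient libraries, against 731, 259 and 207 CPM in floxed libraries (-1.66 ± 0.34, edgeR adjusted p = 0.00397, or -0.90 without floxed replicate 1). The phosphatase Dusp2 fell by 0.91 and Rgs1, which damps chemokine receptor signals, by 1.03. In contrast Rgs10 was at 84, 66.7 and 65.5 CPM in deficient libraries, against 18.2, 22.4 and 28.3 CPM in floxed libraries (1.65 ± 0.17, edgeR adjusted p = 2.53e-06). Early response genes gave 5 rises and 2 falls among 27 (25.9% called, beside 19.3% of all tested genes), with a median of 0.07. There were 3 rises without deficient replicate 1 or floxed replicate 2, and 5 rises and 6 falls without floxed replicate 3. Fos (0.83), Junb (0.49) and the retention receptor Cd69 (0.83) were among the rises. The 2 falls were those of Egr1 (-1.67) and Gadd45b (-0.73), and the list held 1 fall without deficient replicate 1 or floxed replicate 1. Actin regulators and related genes gave 2 rises and 19 falls among 41, led by Lgals1, the lectin galectin-1, at 523, 621 and 526 CPM in deficient libraries, against 1166, 1442 and 1393 CPM in floxed libraries (-1.26 ± 0.14, edgeR adjusted p = 7.43e-06), and S100a6, a calcium-binding protein of effector cells, at 104, 129.7 and 182 CPM in deficient libraries, against 363, 396 and 475 CPM in floxed libraries (-1.57 ± 0.20, edgeR adjusted p = 3.75e-05). Without deficient replicate 1 that list had 11 falls, without floxed replicate 1 it had 4 rises, and with the marker covariates 4 members were called, each lower.

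Most cell cycle genes fell and none of these 3 lists held a rise. Of 45 DNA replication genes 35 fell and 0 rose (median -0.72), of 61 mitosis genes 50 fell and 0 rose (median -0.91), and of 38 DNA repair genes 20 fell and 0 rose (median -0.63), or 13 without deficient replicate 1. Mki67, the proliferation marker Ki-67, was at 460.1, 461 and 592 CPM in deficient libraries, against 1600.4, 1231 and 1164 CPM in floxed libraries (-1.40 ± 0.20, edgeR adjusted p = 9.44e-05). Dut, which keeps uracil out of DNA, was at 115, 116 and 127 CPM in deficient libraries, against 240.1, 258 and 249 CPM in floxed libraries (-1.06 ± 0.15, edgeR adjusted p = 4.64e-05). Mcm3, a subunit of the replicative helicase, Pole, a replicative polymerase, and the condensin subunit Ncaph fell by 0.84, 1.12 and 1.17. In all 5, each deficient library was below each floxed one. Bard1, a DNA repair protein, was at 24.6, 22.2 and 24 CPM in deficient libraries, against 95.2, 65.6 and 69.1 CPM in floxed libraries (-1.70 ± 0.19, edgeR adjusted p = 5.44e-06). Regulators of the cycle included Cdkn1b, the inhibitor p27 of resting cells, at 283, 206 and 193 CPM in deficient libraries, against 99.9, 107 and 78 CPM in floxed libraries (1.26 ± 0.19, edgeR adjusted p = 0.000124), and Cdk6, a kinase of the G1 phase, at 84.3, 121 and 141 CPM in deficient libraries, against 533, 239.8 and 250.0 CPM in floxed libraries (-1.56 ± 0.25, edgeR adjusted p = 0.000458). Myc, a transcription factor of cell growth, was not called, at 40.2, 52.7 and 53 CPM in deficient libraries, against 98.9, 40.3 and 37.2 CPM in floxed libraries (-0.27 ± 0.26, edgeR adjusted p = 0.524). The genes of replication, mitosis and repair had 0 calls with the marker covariates, where the medians were -0.53, -0.76 and -0.35.

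Most replication-dependent histone genes, which are made only during DNA synthesis, also fell. Of 58 tested members of the Hist1 to Hist4 clusters 41 fell and 0 rose, with a median log2 fold change of -0.89. The fit with marker covariates called 0 of them, with a median of -0.705. Their summed level, over 68 genes, was 6162, 6401 and 5791 CPM in deficient libraries, against 8246, 13039 and 11815 CPM in floxed libraries. Among 271 windows of 5 Mb that held at least 20 tested genes, the window with the largest share of called falls was chr13:20000001-25000000, where 42 of 75 genes fell, 39 of them histone genes. Chromosome 13 had calls for 26.4% of its tested genes, or 21% without the histone genes, against 19.3% of all tested genes. Histone genes of a cluster are close copies of each other, so reads may be divided among them. Around Mir155hg itself, 13 other genes within 3 Mb were tested and 3 were called, a count near the share of all tested genes (19.3%). On chromosome 16 as a whole 19.2% of tested genes were called. App, the amyloid precursor protein, was at 35.8, 39.8 and 45.5 CPM in deficient libraries, against 17.1, 13.3 and 22.3 CPM in floxed libraries (1.22 ± 0.27, edgeR adjusted p = 0.00479), and Bach1, at the edge of that span, rose as given above. Atp5j, a subunit of ATP synthase, had -0.42 ± 0.14, edgeR adjusted p = 0.0445, or an adjusted p of 0.0599 to 0.162 without deficient replicate 1, deficient replicate 2, floxed replicate 2 or floxed replicate 3.

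Some small RNAs that guide the modification of other RNAs were called higher, and 0 of either class below were called lower. Of 11 tested small Cajal body RNAs, which guide the modification of spliceosomal RNA, 6 rose (54.5%), and of 76 small nucleolar RNAs, which guide that of ribosomal RNA, 14 rose (18.4%), beside 9.65% of all tested genes. The summed level of the small Cajal body RNAs was 1952, 1817 and 1842 CPM in deficient libraries, against 529, 809 and 685 CPM in floxed libraries. Scarna2 was at 390.1, 331 and 347 CPM in deficient libraries, against 137, 209 and 174 CPM in floxed libraries (1.04 ± 0.14, edgeR adjusted p = 4.58e-05), and Snord17 at 455, 424 and 406 CPM in deficient libraries, against 159, 154 and 140.5 CPM in floxed libraries (1.50 ± 0.16, edgeR adjusted p = 4.68e-06). Neither overlapped between the groups. Without 1 library 6 small Cajal body RNAs and 10 to 15 small nucleolar RNAs rose. The fit with marker covariates called 2 small Cajal body RNAs higher and 0 small nucleolar RNAs. Of 76 ribosomal protein genes 23 rose and 2 fell, with a median of 0.34, while 0 rose and 1 fell with the marker covariates. Rplp1 was at 1326, 1273 and 1178 CPM in deficient libraries, against 638, 795 and 887 CPM in floxed libraries (0.70 ± 0.13, edgeR adjusted p = 0.000733). Many ribosomal protein genes have processed copies, so their counts are uncertain, and there were 11 rises without floxed replicate 1 and 9 without deficient replicate 1. The variable segments of T cell receptor genes gave 12 rises and 2 falls among 62 (7 rises without deficient replicate 1, 4 falls without floxed replicate 1).

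Metabolic and survival lists differed in the share of members called, beside 19.3% of all tested genes. In glycolysis, 1 of 23 genes rose and 4 fell (21.7% called), with the glucose transporter Slc2a3 at 167, 236 and 170.2 CPM in deficient libraries, against 488, 488 and 382 CPM in floxed libraries (-1.24 ± 0.18, edgeR adjusted p = 0.000101). Of 41 nuclear genes of the respiratory chain 0 rose and 1 fell (2.44%). Hypoxia response genes gave 8 rises and 1 fall among 21 (42.9%), or 5 rises and 1 fall without deficient replicate 1 and 5 rises and 3 falls without floxed replicate 3, with Vegfa, the vessel growth factor, at 30.2, 44.4 and 25.2 CPM in deficient libraries, against 6.7, 3.43 and 11.4 CPM in floxed libraries (2.27 ± 0.38, edgeR adjusted p = 0.000548). Sterol and fatty acid genes gave 6 rises and 6 falls among 33 (36.4%), or 3 rises and 2 falls without deficient replicate 1 and 5 rises and 3 falls without deficient replicate 3. Abcg1, which exports cholesterol, was at 66, 60.7 and 61.1 CPM in deficient libraries, against 31.9, 24.6 and 27.8 CPM in floxed libraries (1.16 ± 0.15, edgeR adjusted p = 3.85e-05). In PI3K and mTOR signalling 5 of 31 genes rose and 3 fell, with 2 or 3 rises without deficient replicate 1, deficient replicate 2 or floxed replicate 2, 8 rises without floxed replicate 1 and 5 falls without floxed replicate 3. Pik3cg fell (-1.13) and its inhibitor Pik3ip1 rose (1.80). Of 27 genes of the BCL2 family, the caspases and related genes, which set whether a cell survives, 3 rose and 6 fell (33.3%). The survival protein Bcl2 was among the 3 that rose, at 268, 352 and 245 CPM in deficient libraries, against 169.9, 94 and 72.8 CPM in floxed libraries (1.36 ± 0.26, edgeR adjusted p = 0.00184). The other rises were those of Mcl1 (0.58) and of Fas (1.015), the receptor of the death ligand Fasl, so they did not all favor survival. The fit with marker covariates called 0 members of the glycolysis, respiratory chain, hypoxia, PI3K and mTOR, and BCL2 lists. It called 1 sterol and fatty acid gene, higher.

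The CD4 cells of the same study, in 3 deficient and 3 floxed libraries, show which of these changes differed between the cell types. The difference of the deletion effect, CD8 minus CD4, was called for 1634 of 14080 genes (11.6%), 970 positive and 664 negative. Among the genes called in CD8 cells, it was called for 511 of the 1359 rises and 521 of the 1353 falls. Among cell cycle genes, the difference was called for 42 of 61 mitosis and 29 of 45 replication genes, each negative. Their medians in CD4 cells were 0.17 and 0.08. In the type I interferon list the difference was called for 28 of 42 genes, each positive, and in CD4 cells 1 of them rose and 18 fell. The marker lists differed as well, since 16 of 20 macrophage genes had a positive difference and 16 fell in CD4 cells, where their sum was 5137 to 7172 CPM in deficient and 14739 to 30160.3 CPM in floxed libraries. Cd8a in the CD4 libraries was at 0.26, 0.136 and 0.283 CPM in deficient CD4 libraries, against 14.6, 149.7 and 142 CPM in floxed CD4 libraries, so floxed CD4 libraries held more CD8 transcript. The part of macrophage and CD8 RNA in these differences was not tested. The covariate fit, whose sums moved with the genotype, called 128 differences.

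Among named genes at a mean of 10 CPM or more in an untreated group, the smallest adjusted p-values for that difference belonged to the following. Abcg1 had the smallest (2.96 ± 0.22, edgeR adjusted p = 1.22e-07) and was at 77.4, 69.9 and 62.8 CPM in deficient CD4 libraries, against 189, 246 and 299 CPM in floxed CD4 libraries. Its fold change was thus of opposite sign in the CD8 and CD4 libraries. Next were Plin2, a lipid droplet coat protein (2.56 ± 0.20, edgeR adjusted p = 2.35e-07), P2rx4, a receptor for extracellular ATP (2.95 ± 0.28, edgeR adjusted p = 4.05e-06), Emb, an adhesion protein (1.79 ± 0.18, edgeR adjusted p = 5.99e-06), and Rgs10 (2.31 ± 0.24, edgeR adjusted p = 9.16e-06). The sixth place was shared by Fbxl5, which controls iron handling (1.50 ± 0.16, edgeR adjusted p = 1.28e-05), Fos (2.26 ± 0.24, edgeR adjusted p = 1.28e-05) and Psap, a lysosomal protein (2.66 ± 0.27, edgeR adjusted p = 1.28e-05). Emb was at 564, 496 and 494 CPM in deficient libraries, against 139.7, 140.5 and 124 CPM in floxed libraries (1.94 ± 0.13, edgeR adjusted p = 8.21e-09). In CD4 cells the log2 fold change of Emb was 0.15 (edgeR adjusted p = 0.509), and the other 7 genes fell there. The macrophage sum was also lower in the deficient CD4 libraries, as given above. The part of macrophage RNA in the values of these genes was not tested. Several receptors and targets differed too, among them Pdcd1 (-1.52 ± 0.20, edgeR adjusted p = 9.34e-05), Tnfrsf9 (-2.01 ± 0.28, edgeR adjusted p = 0.000159), Socs3 (2.14 ± 0.30, edgeR adjusted p = 0.000215), Bach1 (2.03 ± 0.22, edgeR adjusted p = 1.41e-05) and Socs1 (0.69 ± 0.21, edgeR adjusted p = 0.0369). No difference was called for Mir155hg (0.01, edgeR adjusted p = 0.988), Ccl3 (-0.20 ± 0.33, edgeR adjusted p = 0.779), Nkg7 (-0.31 ± 0.16, edgeR adjusted p = 0.241), Ifngr1 (0.52 ± 0.19, edgeR adjusted p = 0.0856) or Gpr183 (0.07 ± 0.20, edgeR adjusted p = 0.874).

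**Figure D5:**
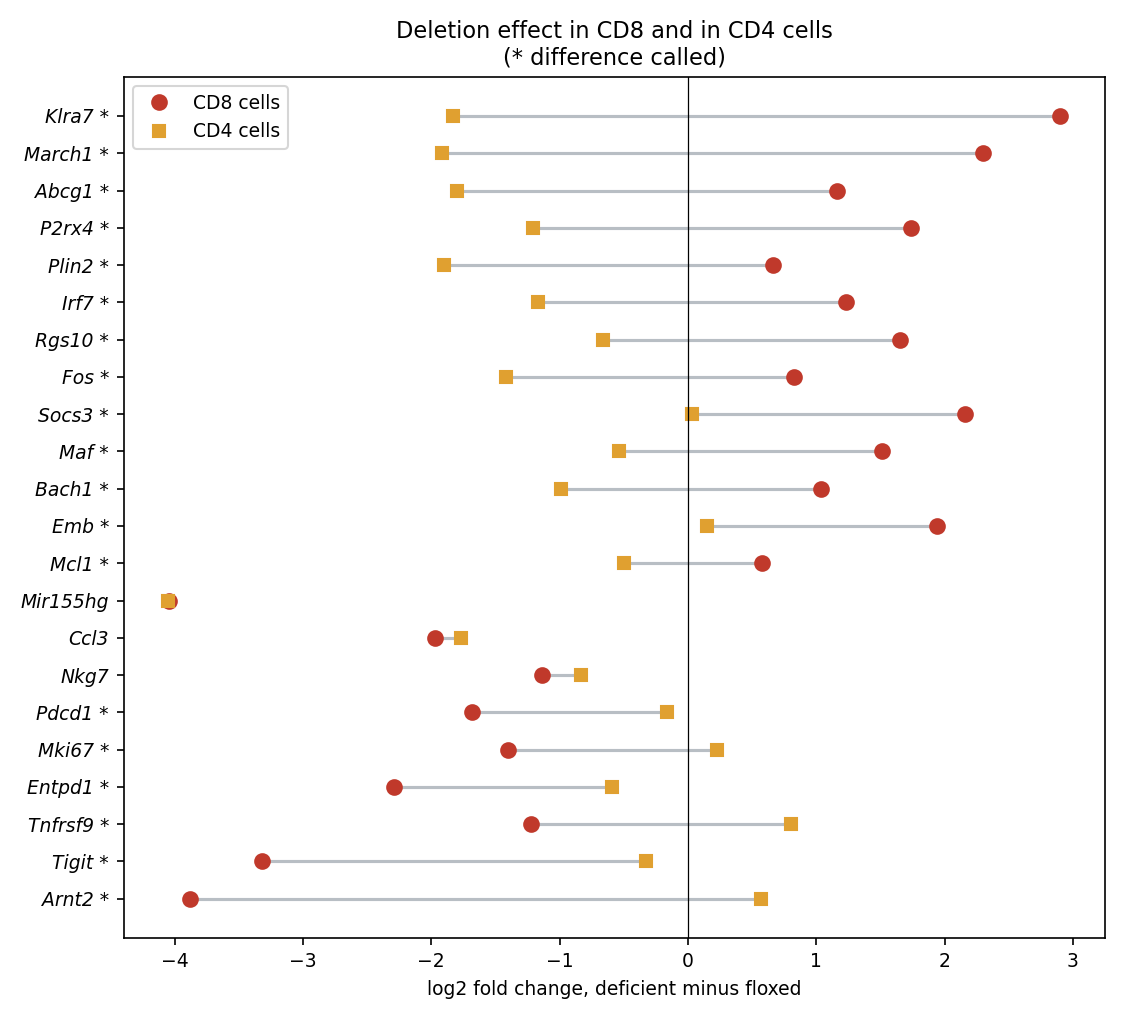
Log2 fold change, deficient minus floxed (horizontal axis), in CD8 cells (red circles) and CD4 cells (ochre squares) for 22 named genes, ordered by the difference, with a star where the difference was called. Klra7 shows the largest positive difference of those plotted and Arnt2 the largest negative one, while the values of Mir155hg were -4.04 in CD8 and -4.05 in CD4 cells.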

How the data were processed

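RNA-seq of sorted tumor T cells was analysed from the deposited count tables, with 1 table per library. Per the file headers, the authors counted reads per Ensembl release 87 gene with featureCounts 1.5.1 at strand setting 2, and GRCm38, STAR and DESeq2 are named in the submitters' processing notes without versions. RNA came from a micro-scale kit. Counts are per pooled library, and nothing says that pools came from separate experiments, so p-values measure only the spread between these libraries, which may be in part technical.

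The 18 libraries (6 groups of 3) were fitted together in edgeR 4.0.16 (R 4.3.3) with filterByExpr, TMM scaling and robust quasi-likelihood F tests, so that 12 residual degrees of freedom estimate the spread, and the contrast was deficient minus floxed CD8 cells. P-values were Benjamini-Hochberg adjusted over 14080 genes and called under 0.05. The standard error is the fold change over the root of F. The difference between cell types is the CD8 effect minus the CD4 effect in that fit. Alternatives were RLE scaling, no filter, a filter of 5 CPM in 3 libraries, DESeq2 1.42.0, limma 3.58.1 voom, the 6 CD8 libraries alone, the replicate number as a block, each library left out, and melanoma and macrophage sums as covariates. The script was tested on simulated data.

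Named genes were Mir155hg, the CD8 markers, the 10 largest rises and 10 largest falls among called genes at 10 CPM or more in floxed cells, up to 4 called members per list by adjusted p, the 6 smallest p-values for the difference (ties included) and genes within 3 Mb of Mir155hg. The rises and falls were limited to genes that did not overlap between the groups. The pick for the difference took genes at a mean of 10 CPM or more in an untreated group. Both picks left out unnamed models and receptor segments. Some genes that this rule names are not reported here. Other list members, the small RNAs and the genes shown for a seed site were chosen after their values were seen. The comparison and the 51 gene lists were chosen with earlier results of these data known. Seed sites were searched in the longest 3′ UTR per gene of GENCODE M21 (GRCm38). Of 49671 gene models in the files, 49326 were matched to that annotation, and 91.5% of those had the same start and end.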

Additional observations from a re-analysis of the deposited data

Results flagged for a closer look

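Of the genes named in the text, 93 had a deletion effect in CD8 cells that differed from that in CD4 cells by the edgeR test of the difference itself (adjusted p under 0.05), against 11.6% of all tested genes. The difference, CD8 minus CD4 on the log2 scale, was positive for 49 and negative for 44 of them. The named genes were picked by their effect in CD8 cells, as members of lists or, for 8, by this difference itself, so these counts describe them and support nothing further. Macrophage and CD8 transcripts also differed between the deficient and floxed CD4 libraries, and their part in these differences was not tested.

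Positive differences in signalling and cytokine genes were those of P2rx4 (2.95), Rgs10 (2.31), Socs3 (2.14), Acvr2a (2.09), Cd7 (1.85), Tnfrsf26 (1.72), Tnfsf8 (1.69), Il7r (1.45), Il4ra (1.29), Ikbke (1.21), Nt5e (1.11), Slamf6 (0.90) and Socs1 (0.69). Homing and retention genes gave Emb (1.79), Cxcr4 (1.41), S1pr1 (1.32), Cd151 (1.24), Cd69 (1.05) and Itgb7 (1.03). Interferon-induced genes gave Rsad2 (3.91), Ifit3 (2.83), Irf7 (2.40), Ifi213 (1.84), Gbp2 (1.68), Tgtp2 (1.66), Tgtp1 (1.56) and Ifit1bl1 (1.38). Transcription factors gave Fos (2.26), Cebpb (2.10), Maf (2.06), Bach1 (2.03), Klf3 (1.94) and Klf2 (1.88). Lectin receptors gave Klra7 (4.73), Klra6 (3.96) and Klra1 (3.03). The other positive differences were those of Eps8 (3.26), App (2.98), Abcg1 (2.96), Psap (2.66), Plin2 (2.56), Trdc (2.13), Vegfa (1.94), Fbxl5 (1.50), Trp53inp1 (1.16), Snord17 (1.06), Scarna2 (0.69) and Picalm (0.50). The difference of Cd8a (7.84) rests on the CD4 libraries, where Cd8a was at 0.136 to 0.283 CPM in the deficient group.

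Negative differences in surface receptors were those of Tigit (-2.99), Il2ra (-2.26), Tnfrsf9 (-2.01), Lag3 (-1.94), Entpd1 (-1.70), Ctla4 (-1.60), Itgav (-1.60), Havcr2 (-1.59), Icos (-1.59), Pdcd1 (-1.52), Cxcr6 (-1.46), Cd28 (-0.97), Il2rb (-0.97) and Il10ra (-0.74). Transcription factors gave Arnt2 (-4.46), Prdm1 (-2.17), Bhlhe40 (-1.50), Tbx21 (-1.05), Stat3 (-1.05), Id2 (-0.94) and Irf8 (-0.89). Effector products gave Gzmb (-1.74), Gzmk (-1.27), Fasl (-1.27), Ccl4 (-1.05) and Ccl5 (-0.95). Signalling genes and their brakes gave Cish (-2.50), Cblb (-1.58), Sh2d2a (-1.19), Ubash3b (-1.06), Themis (-0.85) and Pik3cg (-0.71). Cell cycle, repair and chromatin genes gave Mki67 (-1.63), Bard1 (-1.48), Cdk6 (-1.37), Ezh2 (-1.23), Ncaph (-1.17), Dut (-1.09), Pole (-1.05), Dnmt1 (-0.88) and Mcm3 (-0.78). The remaining negative differences were those of Slc2a3 (-1.45), Lgals1 (-1.17) and S100a6 (-0.93).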

How the results depend on the processing

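Of 137 called genes named in the text, 120 kept their direction and call under each of 13 alternatives other than the marker covariates. Without 1 library, rises numbered 848 to 1297 and falls 793 to 1419, with the lowest counts without deficient replicate 1. Of the 1359 rises 833, and of the 1353 falls 786, were called again there. The 6 CD8 libraries alone gave 850 falls. With melanoma and macrophage sums as covariates there were 83 rises, 29 falls and 128 called differences between CD8 and CD4 cells, against 1634. That fit spends 2 degrees of freedom on sums that moved with the genotype, and 107 of its 112 calls were also called in the same direction without them. It kept 34 of the 137 named calls and turned 6, Tyrp1 (-0.01), Dct (-1.02), Pmel (-0.51), Met (-0.13), Gzmf (0.49) and Themis (0.07), of which the first 3 are part of the melanoma sum, and it turned the uncalled values of Cd8a (0.69), Cd8b1 (0.22), Gzma (0.45), Ifng (0.28), Inpp5d (0.20), Myc (0.18) and Foxo1 (1.58). Foxo1 was at 0.37 in limma voom. Without 1 library, the log2 fold change ran over -0.79 to 1.20 for Foxo1, -0.25 to 0.19 for Inpp5d, -0.09 to 0.19 for Jarid2 and -0.51 to 0.31 for Myc. Jarid2 was at -0.03, -0.09 and -0.02 without deficient replicate 3, floxed replicate 2 and floxed replicate 3. The median of genes with a seed site was 0.058 to 0.098 without 1 library (0.068 without deficient replicate 3 and 0.058 without floxed replicate 2) and 0.13 with the covariates. Across genes, the deviations of same-numbered deficient and floxed libraries from their group means correlated at 0.0113, 0.115 and 0.184 in CD8 cells and at -0.0579 to 0.077 in CD4 cells. Those of CD8 and CD4 libraries correlated at 0.0934 to 0.164 in the deficient and at 0.00349 to 0.0876 in the floxed group. The labels do not say whether CD8 and CD4 libraries of the same number came from the same pools. The main fit treated all libraries as independent. Each deficient CD8 and CD4 library correlated best with its own number, and deficient pairs of unlike number correlated at -0.116 to -0.027. This is a hint of pairing from the data and not from the design. With a replicate block 1423 genes rose, 1326 fell and 1743 differed between cell types. The limit that a count of 0 allows (3 counts) was 0.294 to 0.534 CPM in these 6 libraries. The cause of these shifts was not tested.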

Other observations

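Some gene groups not described above are given here, and other lists are not reported here. Of 36 chromatin and DNA methylation genes 2 rose and 14 fell, with a median log2 fold change of -0.52, and 8 to 17 fell without 1 library. Dnmt1, which copies DNA methylation after replication, was at 280.2, 383 and 350.5 CPM in deficient libraries, against 604, 604 and 538 CPM in floxed libraries (-0.78 ± 0.16, edgeR adjusted p = 0.00143). Dnmt3a, which adds new methylation, was at 106, 102 and 101 CPM in deficient libraries, against 200.4, 156 and 143 CPM in floxed libraries (-0.69 ± 0.13, edgeR adjusted p = 0.00111), and Ezh2, which methylates histone H3 in the Polycomb complex, at 73.2, 72.9 and 81.7 CPM in deficient libraries, against 149, 124 and 143 CPM in floxed libraries (-0.87 ± 0.19, edgeR adjusted p = 0.00282). Every deficient library was below every floxed one for these genes. With the marker covariates 0 members of that list were called.

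Among 20 genes of the microRNA pathway 0 rose and 3 fell (15% called, below the 19.3% of all tested genes). There was 1 fall without deficient replicate 1, and 1 rise and 1 fall without floxed replicate 1. Drosha, the nuclear enzyme that cuts microRNA precursors, was at 27.7, 32.1 and 36 CPM in deficient libraries, against 79.3, 39.3 and 52.3 CPM in floxed libraries (-0.83 ± 0.22, edgeR adjusted p = 0.0107, or an adjusted p of 0.0601 to 0.0884 without deficient replicate 1 or floxed replicate 1). Genes of gamma delta T cells gave 3 rises among 4 tested, beside 9.65% of all tested genes called higher. Trdc, the constant segment of the delta chain, was at 18.3, 14.2 and 14.6 CPM in deficient libraries, against 6.7, 2.65 and 3.92 CPM in floxed libraries (1.84 ± 0.47, edgeR adjusted p = 0.00931), with the deficient libraries above the floxed ones. The summed level of 6 gamma delta genes was 61.1, 67.4 and 62.8 CPM in deficient libraries, against 30.7, 48.8 and 37 CPM in floxed libraries. The part of gamma delta cells in the results was not tested.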
